A study of Mus musculus with 8 samples.

Results

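The genes described here are 8 genes of lipid synthesis in mouse: Srebf1, Fasn, Acaca, Acly, Scd1 and Scd2, taken as the fatty acid side, and Srebf2 and Insig1, taken as the sterol side. Chromatin accessibility around them was measured by ATAC-seq, which reads out where a transposase, Tn5, can cut the DNA and attach adapters. A peak was assigned to a gene when its centre lay inside the gene's span in GRCm38 or within 50 kb of it. This placed 150 of the 134407 peaks of the series in the 8 windows, and no peak fell into the windows of 2 of the genes. For 71 of the 150, no other protein-coding gene lay nearer, and these are called the genes' own peaks. The other 79 lay nearer to another gene and are named by that gene. At the edge of the window, the outermost peak inside lay 49427 bp from Scd1, with a mean value of 31.8, and the first peak outside lay 50381 bp from Acly, with a mean value of 180.5.

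All libraries came from wild-type embryonic stem cells of the E14 line, an established mouse line, grown on gelatin in serum and LIF. The control group had no inhibitor, and the paused group was kept for 24 h with INK128, which blocks the kinase mTOR, at 200 nM; the study calls the resulting state pausing. There were 4 libraries per group, each from 50000 live cells. The labels give no separate culture, passage or day for the replicates, so that p-values measure only the spread between these libraries, which may be technical.

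SREBP transcription factors are made as precursors held in the membrane of the endoplasmic reticulum. The escort protein SCAP carries them to the Golgi, where the site-1 and site-2 proteases cut them and free the part that enters the nucleus. INSIG proteins bind SCAP when sterols are plentiful and hold the precursor back. Srebf1 encodes SREBP-1, best known for the genes of fatty acid synthesis, and Srebf2 encodes SREBP-2, best known for those of sterol synthesis and uptake. mTOR complex 1 is known to promote SREBP activity. The factors bind sterol regulatory elements and E-boxes, commonly beside sites for NF-Y (the CCAAT box) and Sp1 (the GC box).

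Start regions of 4 genes are shown, those of the genes with a single listed start whose strongest own peak lay within 1 kb of it. They run from 250 bases before to 50 bases after the start listed by RefSeq for GRCm38.p6, are written in the direction of transcription, and carry capitals at each match, on either strand, to TCACNCC (the core of a sterol regulatory element), CACGTG (an E-box) or CCAAT. Of the 8 genes, 6 matched an entry in the RefSeq table, with 8 start regions in all; Scd1 and Scd2 did not.
Srebf2, chr15:82147019-82147318, plus strand: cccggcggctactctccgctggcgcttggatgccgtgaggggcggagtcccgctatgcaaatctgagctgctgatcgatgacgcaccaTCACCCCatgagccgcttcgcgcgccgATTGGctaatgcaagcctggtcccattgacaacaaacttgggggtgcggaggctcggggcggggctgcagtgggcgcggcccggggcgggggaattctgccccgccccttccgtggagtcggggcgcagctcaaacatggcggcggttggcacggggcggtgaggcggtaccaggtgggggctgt
Insig1, chr5:28071162-28071461, plus strand: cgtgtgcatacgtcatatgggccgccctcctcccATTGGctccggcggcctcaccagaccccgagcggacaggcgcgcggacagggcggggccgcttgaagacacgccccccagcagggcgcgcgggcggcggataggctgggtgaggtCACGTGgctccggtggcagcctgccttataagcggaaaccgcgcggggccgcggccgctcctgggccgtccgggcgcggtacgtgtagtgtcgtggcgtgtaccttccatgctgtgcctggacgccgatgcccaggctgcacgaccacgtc
Fasn, chr11:120824498-120824797, minus strand: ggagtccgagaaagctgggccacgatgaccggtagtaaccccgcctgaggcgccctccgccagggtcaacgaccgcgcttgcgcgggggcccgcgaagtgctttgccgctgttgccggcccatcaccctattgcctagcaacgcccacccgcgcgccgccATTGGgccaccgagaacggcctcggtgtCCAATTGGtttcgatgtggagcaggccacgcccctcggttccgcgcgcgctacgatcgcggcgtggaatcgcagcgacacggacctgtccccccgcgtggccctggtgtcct
Acly, chr11:100527951-100528250, minus strand: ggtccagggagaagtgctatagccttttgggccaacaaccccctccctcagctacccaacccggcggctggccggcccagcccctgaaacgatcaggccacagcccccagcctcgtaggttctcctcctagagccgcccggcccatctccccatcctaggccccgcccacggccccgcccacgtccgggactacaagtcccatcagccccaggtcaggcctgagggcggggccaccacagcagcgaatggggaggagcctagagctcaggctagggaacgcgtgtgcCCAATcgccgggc

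In these windows the Srebf2 region held 1 TCACNCC match, 162 bases before the start and 1 CCAAT match on the other strand, with its lowest base at 135 before the start. The Insig1 region held a CACGTG match 101 bases before the start, and the Fasn region held 3 CCAAT matches, of which a pair overlapped by 2 bases on opposite strands. Over all 8 start regions, TCACNCC was found in 1, CACGTG in 1, CCAAT in 6 and GGGCGG (the GC box, not capitalised) in 5, while the longer element TCACNCCAC, which contains TCACNCC, was found in 0. The shares among all 32851 RefSeq start regions of the same length were 15.6% for TCACNCC, 7.15% for CACGTG, 37.4% for CCAAT, 35.7% for GGGCGG and 1.24% for TCACNCCAC. The peak at the Insig1 start lay wholly within the printed region and shared 201 bases with it. The peaks at the Srebf2 and Acly starts shared 125 and 92 bases with theirs, and the peak nearest the Fasn start shared 0 bases, since it lay downstream.

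The depth in peaks was between 4434037 and 7238935 reads in 7 libraries and 21161767 reads in control replicate 1, so that this library was measured more precisely than the rest. Values are the deposited ones, reads per peak divided by 1 factor per library. All peaks are 201 bp wide, so that values of different peaks do not differ through width. Other differences between sites that could change the number of reads were not examined. The 8 embryonic stem cell marker genes all had a peak within 2 kb of a gene end, with control means from 24.5 to 314. By the limma-trend test below, Zfp42 (log2 change 0.40, adjusted p = 0.0117) and Esrrb (1.04, adjusted p = 0.000352) were higher in paused cells. The rest ran from 0.02 to 0.32, with an adjusted p of 0.0568 or more. Among all tested peaks within 1 kb of a gene end, 10.4% were called higher. The marker peaks were not followed under other scalings. Of 13 markers of other cell types, 11 had a peak within 2 kb of a gene end (control means 22.8 to 188.5), with an adjusted p of 0.0934 or more. Gata4 and Pax6 had none. An accessible promoter is not a measure of expression, so that these peaks do not tell cell types apart as RNA would. In bulk libraries, a change in how open a site is and a change in the share of cells with the site open cannot be told apart.

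Peaks whose mean value reached 10 were tested. Of these 127402, 13958 passed the test as higher in paused cells (11.0%) and 3702 as lower (2.91%). The test was limma-trend on log2(value + 1), with Benjamini-Hochberg adjusted p under 0.05 over all tested peaks, and every log2 change below is paused against control on that scale. Over all of them the median log2 change was 0.10, so that a change of that size is the level of the bulk. Peak strength moved with the change over the whole table, from a median of -0.195 in the weakest 10% of tested peaks to 0.204 in the strongest 10%. The part of this pattern in the 8 genes was not tested beyond a fit after loess correction of each library on peak strength. That fit is given beside each call it ended among the peaks named by the rule in the processing section. Calls of further genes outside that rule carry no loess value. In the fatty acid, sterol and SREBP processing lists below, 18, 6 and 9 peaks were higher before the correction and 4, 3 and 5 after it. These lists held 185, 97 and 78 tested peaks. Of all tested peaks, 11.0% were higher before the correction and 5.09% after it.

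Among the 71 own peaks of the 8 genes, 67 passed the filter on low values, and of these 5 were higher and 4 lower in paused cells. The share called higher was below the 11.0% of all peaks, and the share called lower above the 2.91%. The split depended on scaling: edgeR with TMM gave 2 higher and 5 lower, beside 7.13% and 5.54% of all peaks. After the loess correction 1 own peak was higher, at Acaca, and 5 were lower, beside 5.09% and 3.49% of all peaks. The 5 higher peaks were spread over Fasn, Acaca, Acly, Srebf2 and Insig1, with 1 each, whereas all 4 lower peaks belonged to Scd2. Without the Scd2 peaks, 5 of 58 tested peaks were higher and 0 lower by limma-trend, with a median log2 change of 0.11. Of these peaks, 1 was lower at an unadjusted p under 0.05, and 0 were called lower by DESeq2 or by edgeR with TMM and 2 by edgeR with total reads; setting Scd2 apart in this way was chosen after its values were seen. The groups did not overlap in 12 tested own peaks, with paused above control in 5 (13.0% of all tested peaks) and below in 7 (4.36%).

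**Figure D1:**
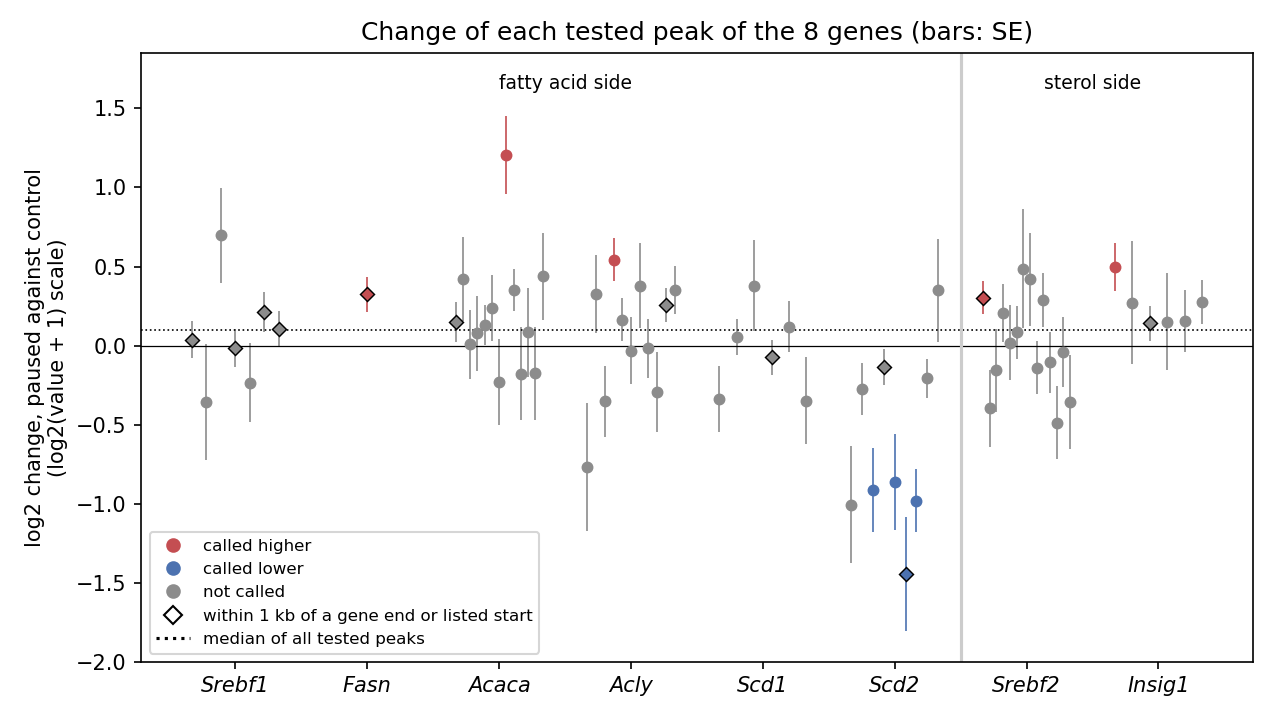
Log2 change, paused against control, of each of the 67 tested own peaks (y axis; bars are SE), by gene and in order of position within a gene. Red and blue points passed the test as higher or lower, diamonds lie within 1 kb of a gene end or listed start, and the dotted line is the median of all tested peaks, 0.10; the 4 blue points are all at Scd2.

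Srebf2, the gene of the sterol-side factor, had a start peak called higher by limma-trend, a call lost in 12 of 18 alternatives. The peak chr15:82146943-82147143, centred 226 bp before the listed start, had values of 316, 283, 299.7 and 326 in the control libraries and 347, 353, 403 and 410.1 in the paused ones. Every paused library was above every control library, with means of 306 ± 19.0 and 379 ± 32.8 (SD, n = 4 each). The log2 change was 0.30 (SE 0.10, limma-trend adjusted p = 0.0431). It was a small change at the edge of the threshold: the adjusted p was 0.0531 to 0.154 on leaving out any library other than paused replicate 1, and 0.213 with edgeR and TMM, where the log2 change was 0.19. After the loess correction the log2 change was 0.09, with an adjusted p of 0.570. The strongest 10% of all tested peaks, those with mean values of 148.6 or more, had a median log2 change of 0.204. Of these 12742 peaks, 2299 were called higher and 23 lower. The other 13 own peaks of Srebf2 lay inside the gene, were weaker, with control means from 11.4 to 59.0, and did not pass. Their log2 changes ran from -0.49 to 0.49, and the median over all 14 peaks was -0.01. The lowest of them, in the inner part of the gene at chr15:82192684-82192884, had control and paused groups that did not overlap (27.97 and 19.56 on average), with an adjusted p of 0.155.

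Insig1, which encodes the sterol-dependent retention factor, had 6 own peaks, all with a positive log2 change by limma-trend (0.14 to 0.50, median 0.21). Of all 127402 tested peaks, 78038 were positive. The Insig1 start peak turned negative under 2 scalings, and apart from it only the called peak was followed under other scalings. The peak at the Insig1 start, chr5:28071183-28071383, was among the strongest of the 8 genes. Its values were 281, 413, 332 and 328 in control libraries and 323, 379, 389 and 391 in paused ones. The groups overlapped, with control replicate 2 the highest of all 8 libraries, and the log2 change of 0.14 (SE 0.11) did not pass (adjusted p = 0.423); it was -0.02 after scaling to total reads and -0.07 after the loess correction. The Insig1 peak that passed lay 33131 bp before the gene, at chr5:28038181-28038381. It rose from 57.7 ± 7.98 to 81.4 ± 7.64 (SD, n = 4 each), with control libraries at 68.45, 52.55, 50.8 and 58.8 and paused libraries at 85.4, 74.1, 76.0 and 90.2. No paused library reached down to the control range, and the log2 change was 0.50 (SE 0.15, adjusted p = 0.0224). The call was lost without control replicate 2 or 3 or paused replicate 1 or 4 (adjusted p 0.054 to 0.0831), with edgeR and TMM (log2 change 0.33, adjusted p = 0.124) and after the loess correction (0.33, adjusted p = 0.172). The remaining Insig1 peaks had control means from 9.78 to 76.7 and did not pass.

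Srebf1 has 3 starts in the RefSeq table, and each had a strong peak nearby. The peak 13 bp inside the start farthest downstream, chr11:60210358-60210558, had values of 184, 191, 149 and 153 in control libraries and 152, 162.5, 169 and 183 in paused ones. The groups lay over each other, and the log2 change was -0.02 (SE 0.12, adjusted p = 0.944), with a sign that turned when control replicate 1 or 2 or paused replicate 1 was left out. The peak 29 bp inside the middle start gave 0.21 (SE 0.13, adjusted p = 0.264). The strongest Srebf1 peak, 334 bp before the upstream start, went from 214 ± 3.89 to 232 ± 36.6 (SD, n = 4 each), a log2 change of 0.11 (adjusted p = 0.580) that was -0.05 after scaling to total reads and -0.10 after the loess correction. Its paused libraries were spread from 186 to 270.0, while its control libraries kept within 209 to 217.5. The smallest adjusted p at Srebf1 was 0.113, at a weak peak inside the gene, chr11:60207766-60207966, with means of 12.8 and 21.0. Of the 7 Srebf1 peaks, 0 passed with limma-trend, where 1 had an unadjusted p under 0.05, and 0 with edgeR or DESeq2; their median log2 change was 0.04.

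**Figure D2:**
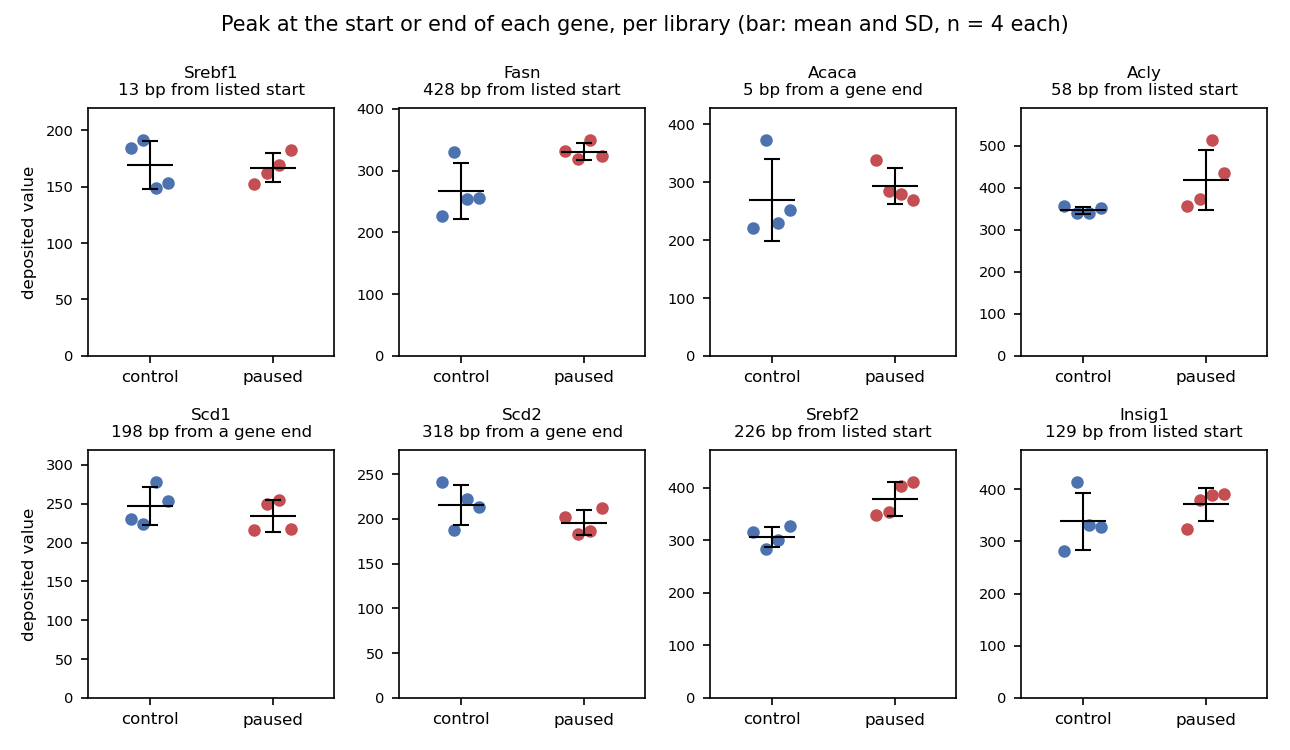
Deposited value (y axis, from 0) in each of the 4 control (blue) and 4 paused (red) libraries for the peak at or near the start of each gene, or at a gene end where that peak is the strongest; bars are mean and SD. Of the 8 panels, the groups are apart only for Srebf2, and in the Fasn panel control replicate 2 stands within the paused range.

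Acly encodes ATP citrate lyase, which makes cytosolic acetyl-CoA for both pathways. The peak at its start, chr11:100527842-100528042, was the strongest own peak of the 8 genes. Its values were 357, 339, 340.4 and 351 in control libraries and 356, 374, 514 and 435 in paused ones. Paused replicate 1 lay within the control range, and the log2 change of 0.26 (SE 0.11) did not pass (adjusted p = 0.0997); without that library it was 0.33, with an adjusted p of 0.0443. A weaker peak inside the gene did pass, chr11:100494091-100494291, 33809 bp downstream of the start. It had values of 84.7, 77.6, 105.0 and 80.8 in control libraries and 116.5, 142, 132 and 117 in paused ones, with no overlap. The log2 change was 0.54 (SE 0.13, adjusted p = 0.00498), and it kept the call without any single library; the adjusted p was 0.0811 with DESeq2 and 0.0886 after the loess correction. The other tested Acly peaks ran from -0.77 to 0.38 and did not pass.

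Acaca encodes acetyl-CoA carboxylase 1, which makes malonyl-CoA, the committed step of fatty acid synthesis. The largest rise among the own peaks of the 8 genes was inside this gene. The peak chr11:84270115-84270315, 74777 bp downstream of the listed start and 131436 bp from the nearer gene end, had values of 12.1, 16.7, 13.55 and 14.7 in control libraries and 28.8, 45.7, 35.7 and 28.1 in paused ones. Every paused library was well above every control library, with means of 14.3 ± 1.95 and 34.6 ± 8.17 (SD, n = 4 each). The log2 change was 1.20 (SE 0.25, adjusted p = 0.000808), and it stayed between 1.06 and 1.31 and past the threshold in all 17 alternatives that could be run. A neighbouring peak, 81675 bp downstream of the start, was stronger and moved less, from 85.5 to 109 on average (log2 change 0.35, adjusted p = 0.0716). The strongest Acaca peak, chr11:84129540-84129740, lay 5 bp inside the lower-numbered end of the gene, 65798 bp before the listed start. That is the upstream end, since the listed start is on the plus strand. The peak also lay inside the neighbouring gene Tada2a, so that it cannot be given to either. It had values of 221, 373, 230.3 and 253 in control libraries and 339, 285.5, 279 and 269.5 in paused ones. Control replicate 2 was the highest of the 8, the groups overlapped, and the log2 change of 0.15 (SE 0.12, adjusted p = 0.450) was -0.02 after scaling to total reads and -0.06 after the loess correction. The peak nearest the listed Acaca start lay 1931 bp before it and did not pass (0.24, adjusted p = 0.473).

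Fasn encodes fatty acid synthase, which builds palmitate from malonyl-CoA. It had 1 own peak, because its neighbours lie close: chr11:120824019-120824219, inside the gene and 428 bp downstream of the listed start. The values were 226, 331, 254 and 256 in control libraries and 332, 319, 349 and 323 in paused ones. In 3 of 4 control libraries the peak was lower than in every paused library, and control replicate 2 lay within the paused range. The means were 267 ± 45.0 and 331 ± 13.4 (SD, n = 4 each), with a log2 change of 0.32 (SE 0.11, adjusted p = 0.0440). The call was lost on leaving out any library other than control replicate 2 (adjusted p 0.0672 to 0.160), and with edgeR and TMM (log2 change 0.22, adjusted p = 0.187). It was also lost with total reads, where the log2 change was 0.17, and after the loess correction, where it was 0.11 with an adjusted p of 0.510.

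Scd1 and Scd2 encode stearoyl-CoA desaturases, which put the first double bond into long-chain fatty acids. They are paralogues that lie beside each other on chromosome 19, in a cluster of such genes, and how reads that fit more than 1 of them were handled is not given in the sources used here. Scd1 had 6 own peaks, of which 0 passed with limma-trend, edgeR or DESeq2 and 0 had an unadjusted limma-trend p under 0.05. Its strongest peak, 198 bp beyond the upper gene end at chr19:44407807-44408007, had values of 230.2, 224.5, 278 and 254 in control libraries and 216, 249, 254.5 and 218 in paused ones. The groups overlapped throughout, with a log2 change of -0.07 (SE 0.11, adjusted p = 0.708). The peak nearest the lower end, 5811 bp from it, was also strong, 228 and 238 on average, with a log2 change of 0.055 that turned negative with 5 of the other scalings or tools.

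At Scd2 the picture differed between strong and weak peaks. The strongest own peak, chr19:44293894-44294094, lay 318 bp inside the lower end of the gene and had values of 241, 187.5, 222 and 213 in control libraries and 202, 183, 186 and 212 in paused ones. The groups overlapped, and the log2 change of -0.14 (SE 0.11, adjusted p = 0.447) did not pass; it was -0.32 (adjusted p = 0.0414) after scaling to total reads and -0.34 (adjusted p = 0.0336) after the loess correction, where it did. The next strongest peaks, 7787 bp above and 9676 bp below the gene, gave -0.21 and -0.27 and did not pass.

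The 4 Scd2 peaks that passed were weak and lay on both sides of the gene and in it. The peak chr19:44311531-44311731, 4767 bp above the gene, had values of 48.05, 53.75, 61.0 and 38.2 in control libraries and 21.9, 22.1, 29.5 and 25.8 in paused ones. The lowest control library was above the highest paused one, and the log2 change was -0.98 (SE 0.20, adjusted p = 0.000787). The peak chr19:44307474-44307674, 710 bp above the gene, had values of 15.9, 20.3, 23.7 and 13.2 in control libraries and 3.46, 7.89, 6.21 and 7.03 in paused ones. Again the groups did not overlap, and the log2 change was -1.45 (SE 0.36, adjusted p = 0.00558). Since 3 reads equal a value of 3.46 in paused replicate 1 and up to 4.73 in the other paused libraries, that peak held only a few reads in each of them. Both kept their call in all 17 alternatives that could be run. The minimum of 50 removed both peaks and so did not test them. The peak 710 bp above the gene had means of 18.3 in control and 6.15 in paused libraries. It passed the filter on low values through its control libraries, with a mean of 12.2 over all libraries. With no filter its limma-trend adjusted p was 0.00484.

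The other Scd2 calls were less firm. The peak 7377 bp below the gene, chr19:44286199-44286399, fell from 26.0 ± 2.41 to 13.5 ± 2.93 (SD, n = 4 each), with no overlap, a log2 change of -0.91 (SE 0.26) and an adjusted p of 0.0168, which was 0.0510 without control replicate 2 and 0.060 with DESeq2. The peak inside the gene, chr19:44304519-44304719, fell from 21.2 ± 3.65 to 11.6 ± 4.01 (SD, n = 4 each), with no overlap and a log2 change of -0.87 (SE 0.30, adjusted p = 0.0496). It passed only just, and the adjusted p was 0.0596 to 0.157 on leaving out any library other than paused replicate 2. Another tested peak, 19303 bp below the gene, had groups apart as well (15.4 and 6.92 on average), with a log2 change of -1.01 and an adjusted p of 0.0627. An untested peak inside the gene, chr19:44301143-44301343, had a mean of 15.1 in control and 3.395 in paused libraries, where paused replicate 3 held 0 reads, which allows a value of up to 4.65. In all, 8 of the 9 tested Scd2 peaks had a negative log2 change, and their median was -0.87.

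**Figure D3:**
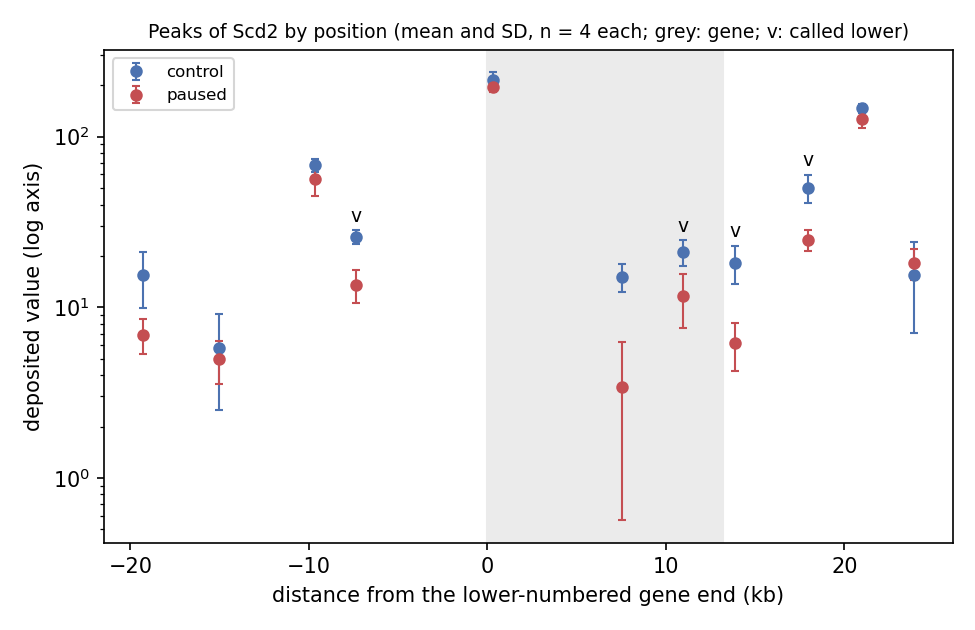
Mean deposited value and SD (y axis, log scale; n = 4 each) of all own peaks of Scd2 against the distance of the peak centre from the lower-numbered gene end in kb, with the gene span in grey; peaks that were not tested are included. Control is blue, paused is red and v marks the 4 peaks called lower, while the strongest peak carries no mark.

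Weak peaks fell more often than strong ones in the whole table as well: of the 71558 tested peaks with a mean value of 10 to 40, 3.86% were called lower, a bracket chosen after the Scd2 values were seen. Of the 4 Scd2 calls, 4 had mean values inside that range. After the loess correction of each library on peak strength, 3 of the 4 Scd2 calls kept an adjusted p under 0.05, and the peak inside the gene had 0.0990, with a log2 change of -0.785 against -0.865 before the correction.

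**Figure D4:**
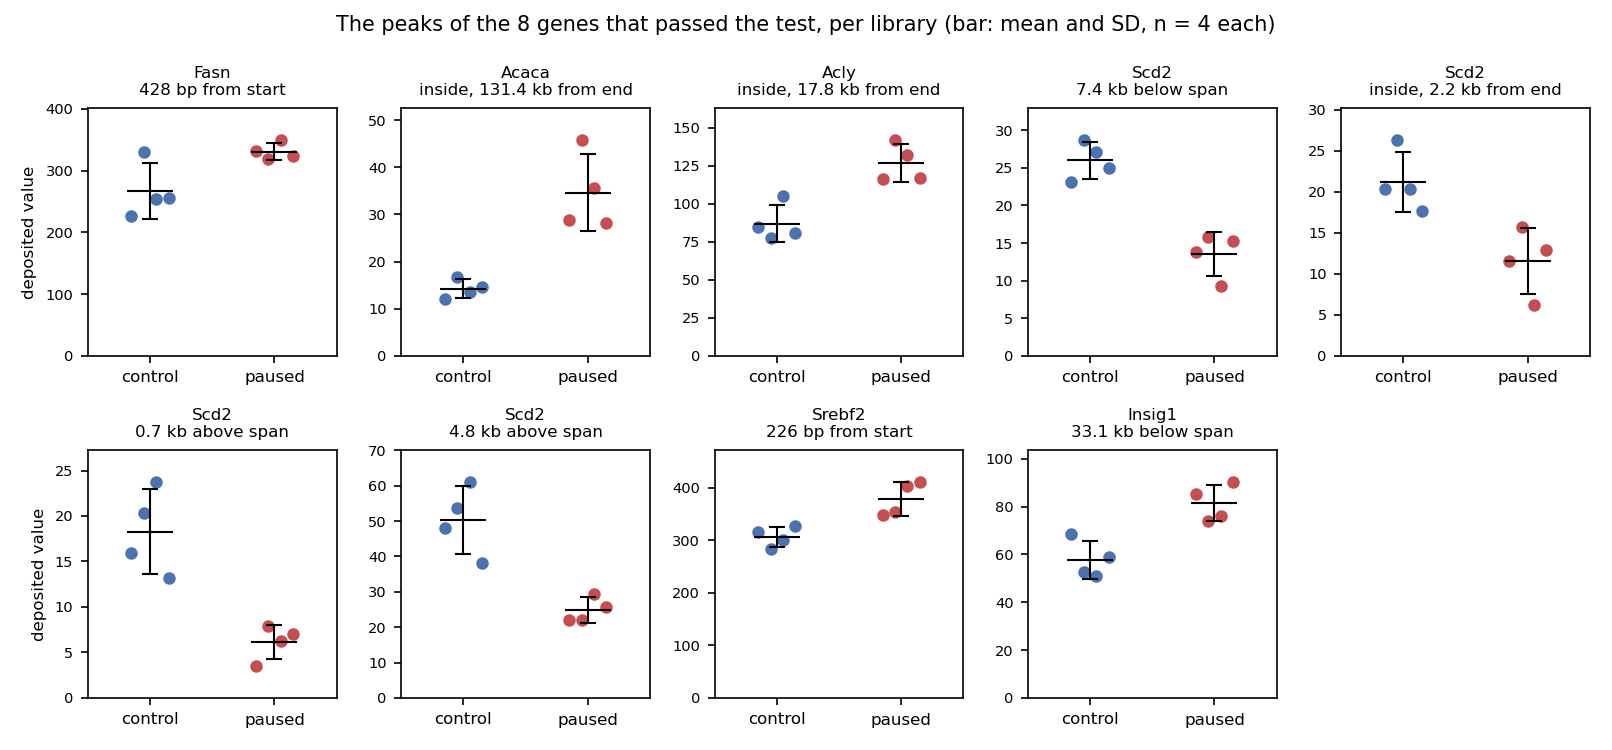
Deposited value (y axis, from 0) in each of the 4 control (blue) and 4 paused (red) libraries for the 9 own peaks that passed the test, each panel with the gene and the peak's place; bars are mean and SD. The groups do not overlap in 8 of the 9 panels, the exception being Fasn, and the 4 lower peaks are those of Scd2.

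Fatty acid and sterol genes were compared by counts and medians, with no test over the genes. The fatty acid side had 47 tested own peaks, with 3 higher, 4 lower and a median log2 change of 0.04. The sterol side had 20, with 2 higher, 0 lower by limma-trend and a median of 0.145. On that side 1 peak was lower at an unadjusted p under 0.05, and 0 were called lower by DESeq2 or by edgeR with TMM and 1 by edgeR with total reads. Beside the 11.0% of all peaks called higher and the 2.91% called lower, the share called higher was below on the fatty acid side and near on the sterol side, and the share called lower was above on the fatty acid side. The difference of the medians, fatty acid minus sterol, was -0.108. Without the Scd2 peaks the fatty acid median was 0.095. In single libraries, the median deviation of fatty acid from sterol peaks had an SD of 0.146 within groups, from -0.22 in paused replicate 4 to 0.19 in paused replicate 3, and the mean paused value minus the mean control value was -0.06. In size this -0.06 was below the SD of single libraries, which is not the error of a difference between group means. The -0.108 is another measure, taken from the log2 changes of the peaks, and it was not tested. The sign of that difference of medians turned, to 0.065, when genes of all types were allowed as the nearer gene. With edgeR and TMM the sterol side had 0 calls against 7 on the fatty acid side.

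Of the 8 own peaks within 1 kb of a gene end, 1 was higher (Srebf2) and 1 lower (Scd2), against 10.4% higher and 1.25% lower among all tested peaks so placed.

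Of the 79 peaks in the windows that lay nearer to another gene, 75 were tested, 2 were higher and 0 lower by limma-trend, where 9 were lower at an unadjusted p under 0.05; edgeR with TMM gave 1 higher and 7 lower, and DESeq2 1 higher and 0 lower. The share called higher was below the 11.0% of all peaks, and with TMM it was below 7.13% and the share called lower above 5.54%. The larger of the pair lay 26655 bp above Fasn and nearest to Ccdc57, at chr11:120851721-120851921. Its values were 86.1, 78.8, 61.0 and 97.0 in control libraries and 140.7, 177, 121 and 177 in paused ones, with no overlap. The log2 change was 0.92 (SE 0.14, adjusted p = 3.19e-05), the smallest adjusted p in any of the 8 windows, and it kept the call in all 18 alternatives run on it. The other lay 39099 bp above Srebf2 and nearest to Cenpm, at chr15:82244378-82244578, and went from 239 ± 15.3 to 298 ± 16.7 (SD, n = 4 each), with no overlap. Its log2 change was 0.32 (SE 0.11, adjusted p = 0.0388), with an adjusted p of 0.0696 to 0.128 on leaving out control replicate 1, 3 or 4 or paused replicate 2 or 4; after the loess correction it was 0.11 (adjusted p = 0.534).

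Further genes of the pathway were taken in 3 lists and counted by the same rule for own peaks. Among 23 other genes of fatty acid and glycerolipid synthesis, 18 of 185 tested own peaks were higher and 3 lower, with a median log2 change of 0.11; edgeR with TMM gave 8 higher and 7 lower. The shares by limma-trend were below the 11.0% and 2.91% of all peaks, and those with TMM below 7.13% and 5.54%. The smallest adjusted p was at a peak 6833 bp above Agpat2, which encodes an enzyme that adds the second acyl chain to glycerol phosphate. It rose from 129 ± 19.0 to 219.9 ± 25.2 (SD, n = 4 each), with no overlap and a log2 change of 0.77 (adjusted p = 5.00e-05). A weak peak 37583 bp below Lpin1, the gene of a phosphatidate phosphatase, rose from 8.545 ± 3.08 to 25.9 ± 6.07 (SD, n = 4 each; log2 change 1.53, adjusted p = 0.000948). A peak 260 bp inside an end of Lpin1 also lay inside the neighbouring gene Ntsr2 and cannot be given to either. It passed with overlapping groups (0.37, adjusted p = 0.0469) and lost the call on leaving out any library other than control replicate 2 (adjusted p 0.0554 to 0.203) and after the loess correction (0.17, adjusted p = 0.432). Elovl6, which encodes an elongase for long-chain fatty acids, had the most calls of this list, with 5 of 27 tested peaks higher by limma-trend. All of them lay inside the gene, with adjusted p from 0.00931 to 0.0420, and some had overlapping groups. DESeq2 called 3 peaks of this list higher, those above Agpat2 and Gpam and below Lpin1, and so none of Elovl6. After the loess correction 4 peaks of the list were higher, with those 3 among them. Peaks above Gpam (log2 change 0.97, adjusted p = 0.00221) and Hsd17b12 (0.52, adjusted p = 0.00594) also rose, the latter with 0.32 (adjusted p = 0.108) after the loess correction. The 3 lower calls, named after their values were seen, were weak peaks inside Acsl3 (-1.17, adjusted p = 0.0256), Hsd17b12 (-0.80, adjusted p = 0.0363) and Tecr (-0.77, adjusted p = 0.0489); the groups were apart at Acsl3 and overlapped at the other two.

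Among 23 genes of sterol synthesis and uptake, 6 of 97 tested own peaks were higher and 8 lower, with a median log2 change of 0.10; edgeR with TMM gave 4 higher and 8 lower. The share called higher was below the 11.0% of all peaks and the share called lower above the 2.91%. With TMM they were likewise below 7.13% and above 5.54%. Sqle, which encodes squalene epoxidase, had 3 of 12 tested peaks higher, and the strongest of these, 12675 bp below the gene, rose from 131 ± 15.8 to 193 ± 7.81 (SD, n = 4 each; log2 change 0.56, adjusted p = 0.00134). Pmvk, which encodes phosphomevalonate kinase, changed in both directions at its ends. The peak 203 bp inside the lower end rose from 22.1 ± 2.23 to 41.6 ± 7.21 (SD, n = 4 each; log2 change 0.87, adjusted p = 0.00399), and the peak 566 bp inside the upper end fell from 80.2 ± 15.9 to 44.8 ± 9.77 (SD, n = 4 each; log2 change -0.83, adjusted p = 0.000890). Single peaks of Hmgcs1 (0.60, limma-trend adjusted p = 0.0471) and Mvk (0.52, adjusted p = 0.0336) rose. A peak of Fdps fell (-0.76, adjusted p = 0.0126), and the groups overlapped at Mvk and Fdps. DESeq2 called 2 peaks of this list higher, the strongest of the Sqle calls and the rising Pmvk peak, and so none of Hmgcs1 or Mvk. It called 5 lower. Of all tested peaks, DESeq2 called 3.06% higher and 1.49% lower, so that the list's share was below for higher and above for lower.

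Among 12 genes of SREBP processing, 9 of 78 tested own peaks were higher and 3 lower, with a median log2 change of 0.05; edgeR with TMM gave 6 higher and 8 lower. These counts were near the level of all peaks, 11.0% higher and 2.91% lower, while with TMM the share called lower was above 5.54%. Mbtps1, which encodes the site-1 protease, had 4 of 8 tested peaks higher. They included the peak 19 bp inside an end of the gene, which rose from 253 ± 21.6 to 321 ± 38.9 (SD, n = 4 each; log2 change 0.34, adjusted p = 0.0322) and lost the call without control replicate 1 or 4 or paused replicate 1, 2 or 4 (adjusted p 0.0570 to 0.122) and after the loess correction (0.13, adjusted p = 0.472). A weaker peak deep inside Mbtps1 rose from 37.6 ± 11.5 to 69.6 ± 3.54 (SD, n = 4 each; log2 change 0.92, adjusted p = 0.000600). Fbxw7, which encodes a subunit of a ubiquitin ligase that marks nuclear SREBP for breakdown, had 3 peaks higher and 1 lower of 16 tested. Erlin1, the gene of a membrane protein of the endoplasmic reticulum, had 1 of 4 higher (0.67, adjusted p = 0.00256). Mbtps2, the site-2 protease gene, had 1 of 13 higher, with overlapping groups (0.39, limma-trend adjusted p = 0.0388). DESeq2 called 3 peaks of this list higher: the weaker Mbtps1 peak, the Erlin1 peak and 1 of Fbxw7. It called 1 lower, beside 3.06% higher and 1.49% lower of all tested peaks. Scap had 1 of 8 tested peaks lower (-0.99, adjusted p = 0.0311), a weak one inside the gene.

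**Figure D5:**
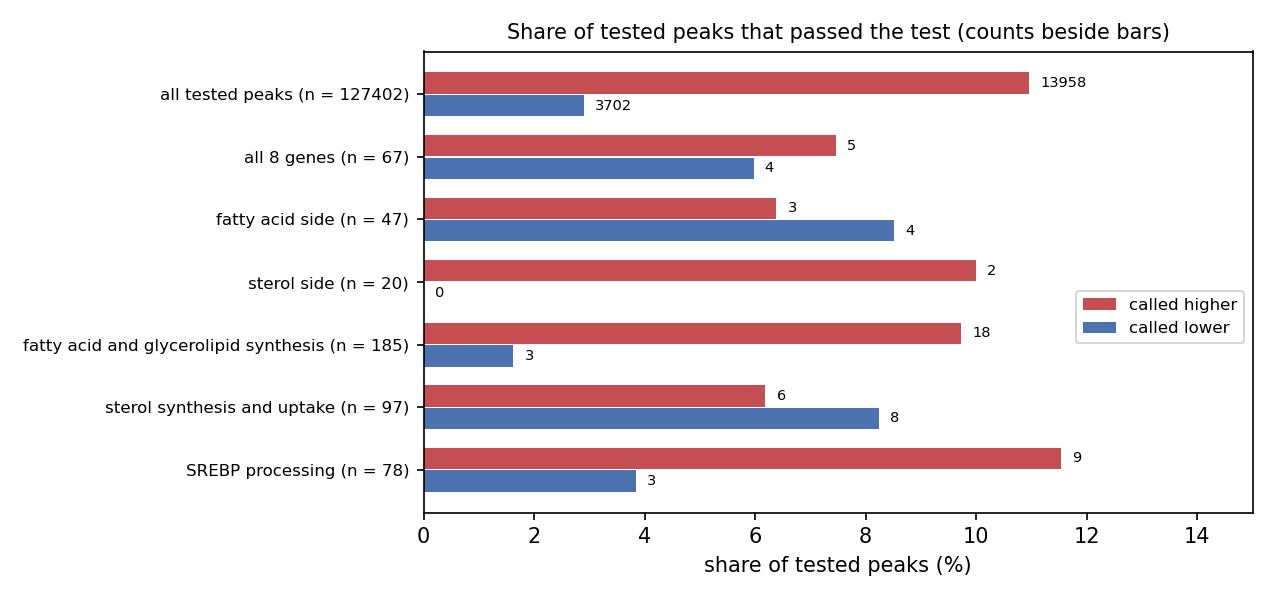
Share of tested peaks that passed the test as higher (red) or lower (blue) in paused cells (x axis, percent), with counts beside the bars, for all tested peaks, the 8 genes and their sides, and the 3 lists. The sterol list and the fatty acid side have more lower than higher calls; all 4 lower calls of the fatty acid side are at Scd2.

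The gene-end peak of the 8 genes with the smallest adjusted p, the Scd2 peak 710 bp above the gene, was set beside the 16168 other gene-end peaks. They were compared by the root mean square difference of centred log2 values over the 8 libraries, and peaks at ends of Scd2 were then left out. The nearest were weak peaks at ends of Pdap1 (0.211, log2 change -1.46), Prss30 (0.222, log2 change -1.29) and Zfp46 (0.227, log2 change -1.14). Their like fall follows from the way they were picked.

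In the authors' deposited table, 4 own peaks of the 8 genes had an FDR under 0.05 with a higher value in paused cells and 4 with a lower one, beside 9.19% and 1.80% of all peaks in that table. Of these 8, 7 were also called here. The eighth, with an FDR of 0.00424 in the authors' deposited table, was the Scd2 peak inside the gene that fell under the filter on low values here. The authors' deposited table gives the Insig1 peak an FDR of 0.0620 and the tested Scd2 peak inside the gene one of 0.0897, while the Srebf2 and Fasn start peaks have 0.0333 and 0.0469.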

How the data were processed

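The data were 8 ATAC-seq libraries, 4 control and 4 paused (paired-end reads of 150 bp, as the labels' protocols state), grouped by the sample titles, with columns matched through the library names in the labels. For each library the authors deposited a scaled signal, the number of reads in a peak over a factor of that library, with 2 decimals. This was read from the values, 100% of which in each column were whole multiples of 1 step within 0.01. The authors also deposited log2 concentrations and a log2 fold, and the p-value and FDR of their own comparison, per the file headers. The submitters' processing notes name FastQC, Trim Galore, Bowtie2 2.4.1, MACS3 3.0.3, DiffBind 3.16.0 and mm10, without roles; read filters and the handling of the Tn5 offset are not given in the sources used here. All peaks are 201 bp wide, in 1 set for all libraries, with 0 columns of libraries not used.

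The test was limma-trend (limma 3.58.1, R 4.3.3) on log2(value + 1), a scale that understates the change of weak peaks, over the 127402 of 134407 peaks whose mean value reached 10, adjusted over all of them by Benjamini-Hochberg. The same reads recovered as whole numbers were tested with edgeR 4.0.16 (quasi-likelihood; 21045 peaks called with the deposited factors) and DESeq2 1.42.0. Other alternatives were TMM, total-read and loess (span 0.3) scaling, a pseudocount of 0.1, no filter, a minimum of 50, a replicate block, each library left out, a 10 kb window, and the nearest gene among genes of all types or by gene end. Fits first tested on simulated data were limma-trend, alone, with the replicate block or after loess, edgeR with the deposited factors or TMM, and DESeq2. The other settings were not simulated. A peak with 0 reads allows 3 reads, a value of 1.04 in control replicate 1 and 5.08 in control replicate 3; such limits cover counting error only.

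Gene spans, of 21887 protein-coding genes, and start regions came from RefSeq tables of GRCm38.p6, which lists no strand or exons for the spans; the exons and introns under peaks were not analysed here. Named peaks were those nearest a listed start (or each gene end where no start is listed), the strongest, the one with the smallest adjusted p and every called own peak of each gene, called peaks nearer to another gene, and from each further list the 4 peaks with the smallest adjusted p and called peaks within 1 kb of a gene end. Some results of the sterol list are not reported here by gene. The genes, lists and tests were chosen with earlier results of these data known.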

Additional observations from a re-analysis of the deposited data

Results flagged for a closer look

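In 74 groups of 4 libraries, those of the peaks named in the report, the most distant library was compared with the rest by Dixon's test at the 95% level, which chance passes in about 1 of 20 groups; 2 passed. At the Acaca peak 1931 bp before the listed start, paused replicate 2 had a value of 67.82, while the other paused libraries had 32.3 to 35.15; without it the log2 change of that peak was -0.005. At the Hsd17b12 peak 21042 bp above the gene, paused replicate 1 had a value of 121.12, while the others had 146.7 to 150.0.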

How the results depend on the processing

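Of the alternative values, 173 of 271 for counts and medians and 545 of 653 for single peaks kept their direction and their side of the threshold (counts within 1.5 times). Over all tested peaks the median log2 change, 0.101, became 0.001 after TMM rescaling and -0.069 with total reads; edgeR with total reads called 5.26% of all peaks higher and 7.50% lower. The rest are given by setting, where the cause was not tested. The counts stand beside these shares of all peaks called higher and lower. With edgeR they were 12.9% and 3.63% with the deposited factors and 7.13% and 5.54% with TMM, and with DESeq2 3.06% and 1.49%. With limma-trend they were 5.99% and 4.15% after TMM rescaling and 5.09% and 3.49% after the loess correction. No filter gave 10.2% and 2.86%, and a minimum of 50 gave 22.4% and 1.66%.

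With the deposited factors, edgeR called 4 peaks nearer to another gene and 6 of SREBP processing lower. With TMM it called 2 own and 1 other peak higher and 7 other peaks lower, 0 on the sterol side, 8 lower in SREBP processing, and 8 higher and 7 lower in the fatty acid list. With total reads it called 2 own and 1 other peak higher, 9 own and 10 other peaks lower, 1 on the sterol side, and 4 higher and 10 lower in SREBP processing, 3 and 12 in the fatty acid list and 2 higher in the sterol list. DESeq2 called 1 own peak higher and 2 lower, 1 other peak higher, 3 on the fatty acid side and 0 on the sterol side, and 3 higher and 1 lower in SREBP processing, 3 and 0 in the fatty acid list and 2 and 5 in the sterol list. After TMM rescaling, limma-trend called 2 own and 1 other peak higher, 1 other peak lower, 0 on the sterol side, 9 higher in the fatty acid list and 3 in the sterol list. After the loess correction it called 1 own and 1 other peak higher, 2 other peaks lower, 0 on the sterol side, and 5, 4 and 3 higher in SREBP processing, the fatty acid list and the sterol list. No filter gave 2 other peaks lower. A minimum of 50, which removes weak peaks, gave 0 own peaks lower, 3 calls on the fatty acid side, and 0, 0 and 2 lower in the 3 lists. The 10 kb window gave 1 call on the sterol side and 3 higher in the sterol list. Genes of all types as neighbours gave 1 other peak lower, 1 call on the sterol side, 3 higher and 4 lower in the sterol list, and a difference between the sides of 0.065.

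Leaving out each library in turn gave 2 to 4 own peaks higher and 2 to 4 lower, 1 to 3 other peaks higher and 0 to 2 lower, 5 to 6 calls on the fatty acid and 0 to 1 on the sterol side, 6 to 9 higher and 1 to 4 lower in SREBP processing, 10 to 17 and 0 to 3 in the fatty acid list, and 3 to 6 and 4 to 8 in the sterol list. The sterol side had 0 calls without control replicate 2 or 3 or paused replicate 4. Of all tested peaks, these fits called 7.05% to 9.96% higher and 1.82% to 3.04% lower.

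Libraries share replicate numbers across groups, and whether the numbers pair them could not be settled. Same-numbered libraries correlated weakly in their deviations, at 0.079, 0.0358, 0.133 and 0.0395. In both groups replicates 1, 3 and 4 correlated best with their own number, while control replicate 2 and paused replicate 2 did not. With the replicate block, 6 own peaks were higher and 4 lower, 4 other peaks higher and 1 lower, and 10 higher in the sterol list. The Acly start peak then had a limma-trend adjusted p of 0.0417. The block called 13.6% of all peaks higher and 3.63% lower.

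Log2 changes that turned sign were all small. With total reads they were -0.017 (Acaca upstream end peak), -0.094 (Scd1 lower peak), -0.048 (Srebf1 upstream start) and -0.017 (Insig1 start). After the loess correction they were -0.060, -0.154, -0.102 and -0.071. The Scd1 peak was also -0.039 with edgeR and TMM, -0.040 with DESeq2, -0.047 with limma-trend and TMM, and ran from -0.034 (without paused replicate 3) to 0.158 with each library left out. The Acaca peak near the start ran from -0.005 (without paused replicate 2) to 0.344. The Srebf1 downstream start peak ran from -0.075 to 0.044 and was 0.026, 0.044 and 0.025 without control replicate 1, control replicate 2 and paused replicate 1. Depth limits weak peaks most: the median number of reads per peak was 91 in control replicate 1 and 18 to 29 elsewhere.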
